A study of Mus musculus with 48 samples.

Results

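The regions described here are 1426 sites of open chromatin that were more accessible in progenitor than in terminal CD8 T cells taken from tumours of young mice, out of 53868 peaks measured in 48 ATAC-seq libraries. ATAC-seq uses the Tn5 transposase to insert adapters into accessible DNA, so that the reads over a peak measure how open it is. The regions were selected on these young values: a region was chosen where its mean over all 48 libraries was at least 20 normalized reads and its mean log2(value + 1) in the 6 young Tprog libraries exceeded that in the 9 young Tterm libraries by at least 1.5, with each of the 3 guides averaged first and given equal weight. The young Tprog and Tterm values therefore chose the regions and are given only as a description. The 24 libraries from aged hosts and the 9 young Ttran libraries entered the rule through the mean level alone, and the tests below are made in them.

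The cells were OT-1 CD8 T cells, whose T cell receptor recognises an ovalbumin peptide, and in every group, the OTC control included, they carried CD45.1 and Cas9 and a lentiviral guide RNA with an ametrine reporter. The labels name the other guide groups Zfp219KO and Dusp5KO, for a zinc finger protein and a phosphatase that acts on the kinase ERK. The cells were moved into young or aged mice, whose exact ages are not given in the sources used here, the day before B16-OVA melanoma cells that express ovalbumin, and were sorted from the tumours 15 days after inoculation. The gates were Slamf6+Tim-3- for Tprog (labelled progenitor exhausted), Slamf6+Tim-3+ for Ttran (transitory, effector-like), Slamf6-Tim-3+ for Tterm (terminally exhausted) and Slamf6-Tim-3- for Ttad (age-associated dysfunctional). Each of the 12 aged groups (3 guides in 4 states) had 2 libraries. In young hosts each guide had 2 Tprog, 3 Ttran and 3 Tterm libraries, and no young Ttad library was analysed here. Each library is a pool of several mice with 5000 to 50000 cells for a guide and state. The sources used here do not give which mice went into which pool, so p-values measure the spread between these pools.

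Exhausted CD8 T cells in tumours are renewed from a progenitor pool that keeps the transcription factor TCF1, the product of Tcf7, and that gives rise to transitory and then to terminal cells. Progenitors keep genes of survival, lymph node homing and self-renewal active, and lose them as they become terminal and express inhibitory receptors such as Tim-3. These programmes are written largely in enhancers, which are open sites away from gene starts whose accessibility changes with cell state. In such bulk measurements, a lower value can come from fewer cells with the site open or from a site that is less open in each cell, and these cannot be told apart.

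Few of the regions lay at gene starts, and the starts they did cover are shown first because their position links a region to a gene directly. Reference promoter windows, from 250 bases before to 50 bases after a start, were held for 17491 protein-coding genes, and the regions overlapped windows of 22 of these genes. The sequences below are the 250 bases before the start of 4 of these genes, from RefSeq on build GRCm38.p6, chosen after their values were seen and written 5′ to 3′ on the strand of the gene. Id3 encodes an inhibitor of E proteins that marks progenitor and memory cells, Il2 the growth factor of T cells, Dapl1 a protein expressed in naive-like and memory T cells, and Cd101 a surface protein that marks terminally exhausted cells. Capitals mark matches to the 16 motifs searched on both strands.
Id3 (chr4:136143572-136143821, plus strand): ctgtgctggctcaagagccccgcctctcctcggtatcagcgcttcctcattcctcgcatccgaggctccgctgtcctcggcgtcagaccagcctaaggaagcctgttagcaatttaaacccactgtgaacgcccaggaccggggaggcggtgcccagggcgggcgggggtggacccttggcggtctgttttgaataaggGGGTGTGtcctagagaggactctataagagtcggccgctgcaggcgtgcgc
Il2 (chr3:37125955-37126204, minus strand): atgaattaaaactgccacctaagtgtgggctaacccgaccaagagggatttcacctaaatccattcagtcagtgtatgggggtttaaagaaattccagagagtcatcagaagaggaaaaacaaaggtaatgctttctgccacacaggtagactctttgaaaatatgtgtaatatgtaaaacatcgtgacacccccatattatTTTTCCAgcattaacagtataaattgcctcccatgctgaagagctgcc
Dapl1 (chr2:59484403-59484652, plus strand): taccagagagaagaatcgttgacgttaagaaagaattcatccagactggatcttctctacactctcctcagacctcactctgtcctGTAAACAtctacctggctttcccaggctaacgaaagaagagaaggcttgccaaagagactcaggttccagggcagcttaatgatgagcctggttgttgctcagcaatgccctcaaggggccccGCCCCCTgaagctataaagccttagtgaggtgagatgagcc
Cd101 (chr3:101029554-101029803, minus strand): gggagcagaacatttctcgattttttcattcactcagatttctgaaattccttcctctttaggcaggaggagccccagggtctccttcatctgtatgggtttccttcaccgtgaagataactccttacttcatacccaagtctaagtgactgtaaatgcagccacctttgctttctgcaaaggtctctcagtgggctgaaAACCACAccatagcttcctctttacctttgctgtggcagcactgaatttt

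In these letters the capitals are a KLF match (GGGTGTG) at Id3, an NFAT match (TGGAAAA, here on the other strand) at Il2, a FOXO match (GTAAACA) and a CTCF core match (AGGGGGC, on the other strand) at Dapl1, and a RUNX match (TGTGGTT, on the other strand) at Cd101. The Dapl1 region starts at base 59484518 and covers 134 of the 250 bases shown, and the FOXO match lies before it, outside the region. The E-box CAGCTG was found in 7 of the 22 promoter windows overlapped by a region (31.8%), against 15.1% of all 17491 windows. The TCF/LEF letters CTTTGAT were in 1 of the 22 (4.55%), that of Trat1, a transmembrane adaptor of the T cell receptor complex, against 3.28% of all windows. With 22 windows these shares are a description only.

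The regions at the starts shown were open in aged progenitors too. Among the other promoter regions, that of 4931408C20Rik had a negative log2 difference of Tprog from Tterm over guides, which did not pass (-0.75, SE 0.395, limma adjusted p = 0.139). The Id3 promoter region (chr4:136143607-136144833) held 489 and 466 normalized reads in the aged OTC Tprog libraries, 211 and 258 in Ttad, 138 and 223 in Ttran and 145 and 182 in Tterm. Its aged Tprog libraries did not overlap those of any other OTC state, and over the 3 guides the log2 difference of Tprog from Tterm was 1.60 (SE 0.11, limma adjusted p = 1.91e-20). The Dapl1 promoter region (chr2:59484518-59484967) held 58.9 and 86.1 in OTC Tprog, 57.0 and 41.9 in Ttad, 28.6 and 28.7 in Ttran and 17.4 and 12.8 in Tterm, a log2 difference of Tprog from Tterm of 2.41 over guides (SE 0.29, limma adjusted p = 1.65e-10). The Cd101 promoter region (chr3:101029146-101030285), at a gene known from terminal cells, was also higher in aged Tprog, with 87.2 and 154 reads in OTC Tprog against 16.3 and 33.9 in OTC Tterm and a log2 difference over guides of 1.73 (SE 0.20, limma adjusted p = 2.84e-11). At Il2 (chr3:37125704-37126777) the values were 144 and 121 in OTC Tprog and 58.8 and 61.4 in OTC Tterm, while the OTC Ttran pools lay far apart at 117 and 43.04; the log2 difference of Tprog from Tterm over guides was 1.52 (SE 0.20, limma adjusted p = 1.67e-09).

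The values that chose the regions ranged widely. The young log2 difference had a median of 1.98 and reached 5.65, at Unc80 (chr1:66552411-66553074). It was at least 2 at 699 regions and at least 3 at 142. Next in size were regions 69404 bp from Lonrf2 (5.59) and 37664 bp from Gypc (5.31). Just inside the threshold lay regions assigned to Zmynd11 and Hrh4, at 1.502 and 1.503, and just outside lay peaks of Sntb2 at 1.4995 and Tex13d at 1.4998. A further 724 peaks passed the difference but had a mean under 20, the closest being peaks of Ipcef1 at 19.90 and Tmem168 at 19.92. With the signs of the rule turned round, 746 peaks were more open in young Tterm; these terminal-open peaks serve below as a comparison.

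By position, the regions were mostly distal. Their median width was 796 bp, against 987 bp for the 46943 peaks that pass the mean filter. Of the 1426, 775 (54.3%) overlapped the body of a protein-coding gene, 477 lay outside but within 100 kb of a gene, and 174 (12.2%) had no gene within 100 kb, against 4.53% of the peaks that pass the filter. Only 25 (1.75%) overlapped a promoter window of any coding gene in the reference table, against 19.4%. Another region of the set lay within 50 kb of 572 of them (40.1%). The regions were assigned to 880 genes, of which 689 had 1 region and 45 had at least 4.

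The genes with the most regions were Asap1, a GTPase-activating protein for ARF proteins (12 regions of 30 peaks), Aff3, a transcriptional elongation cofactor (10 of 13), Foxp1, a forkhead factor that keeps T cells quiescent (10 of 46), Inpp4b, a phosphoinositide phosphatase (9 of 41), and then Dapl1 (8 of 14), Lrig1 (8 of 11) and Tbc1d4 (8 of 11). Rad51b, a recombination gene, had 7 of 43. Assignment is by position, and the files do not show which gene a region acts on. All 12 Asap1 regions, all 10 at Aff3 and all 8 at each of Dapl1, Lrig1 and Tbc1d4 were also higher in aged Tprog than in aged Tterm in the limma test over guides described next, with log2 differences from 1.01 at Tbc1d4 to 3.26 at Asap1. At Foxp1 9 of 10 were, and at Inpp4b 8 of 9, where 92.8% of all the regions and 16.9% of all peaks were called higher. At 4932411N23Rik, with 6 regions of 9 peaks, none was, with differences from -0.53 to -0.05.

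The first question was whether sites opened in young progenitors are also open in progenitors of aged hosts. They were: of the 1426 regions, 1324 (92.8%) were higher in aged Tprog than in aged Tterm in the mean over guides, and 8 were lower, where 16.9% of all 53868 peaks were called higher and 18.4% lower (limma, Benjamini-Hochberg adjusted p under 0.05 over all peaks, 24 aged libraries). The median log2 difference was 1.49, with quartiles of 1.11 and 1.94, against 0.01 over all peaks, and 1166 regions differed by at least 1. In OTC control cells alone, with 2 libraries against 2, 1102 were higher and 0 lower, against 8.85% of all peaks higher and 10.5% lower, with a median of 1.56; 1263 had an unadjusted p under 0.05 in either direction, and edgeR's quasi-likelihood test on whole reads called 1162 higher and 0 lower. With the Zfp219 guide alone limma called 1089 higher and 0 lower (all peaks 8.43% and 9.57%), with 1247 at an unadjusted p under 0.05, and edgeR 1159 and 0. The terminal-open peaks went the other way, with 702 of 746 lower in aged Tprog.

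**Figure D1:**
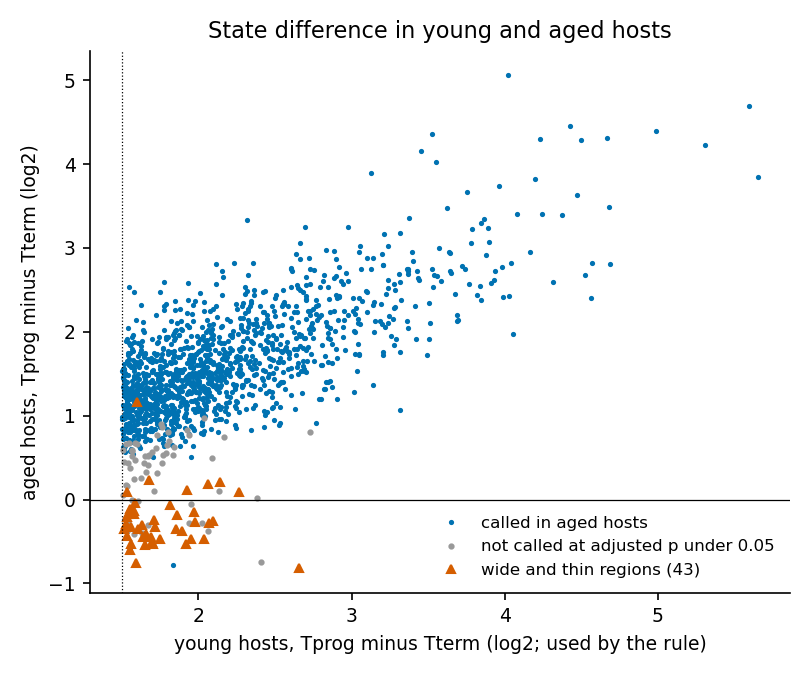
Each point is a region; the x axis is the young Tprog minus Tterm difference (log2 of value + 1, the quantity used by the rule, with the threshold of 1.5 dotted) and the y axis is the same difference in aged hosts (mean over 3 guides). Nearly all regions lie above 0 on the y axis, with a median of 1.49, and the orange triangles mark 43 wide and thin regions described further on, which lie between -0.82 and 1.17.

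The change was seen at regions of the genes that define progenitors. The main Tcf7 region (chr11:52273512-52275959, in the gene body) held 628 and 578 normalized reads in aged OTC Tprog, 218 and 293 in Ttad, 196 and 156 in Ttran and 89.3 and 94.4 in Tterm. The Tprog and the Tterm pools each stood apart from all other states, and over guides the log2 difference of Tprog from Tterm was 2.75 (SE 0.11, limma adjusted p = 6.66e-33). The strongest Id3 region, 36465 bp from the gene (chr4:136106423-136107357), held 738 and 783 in aged OTC Tprog, 672 and 565 in Ttad, 344 and 400 in Ttran and 303 and 291 in Tterm (log2 difference of Tprog from Tterm over guides 1.73, SE 0.08, limma adjusted p = 7.47e-29).

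Regions at genes for transcription factors of memory-like cells followed. A region 45840 bp from Satb1, a chromatin organiser, held 408 and 416 in aged OTC Tprog against 68.6 and 46.7 in Tterm, and its log2 difference over guides was 2.53 (SE 0.17, limma adjusted p = 2.34e-20). A region 84971 bp from Eomes, a T-box factor, held 140 and 155 against 34.9 and 26.6, with a log2 difference of 1.89 (SE 0.18). The strongest Foxp1 region held 311 and 279 against 108 and 106, a difference of 1.15 (SE 0.13), and the strongest Bach2 region, at a repressor of effector genes, held 354 and 320 against 146 and 170, a difference of 0.86 (SE 0.11). At the strongest Ikzf1 region, of the Ikaros factor, counts were low, at 39.6 and 28.4 against 18.5 and 9.16 (1.23, SE 0.37). All of these passed the limma test, the weakest with an adjusted p of 0.00582 at Ikzf1.

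Regions at genes of homing and surface receptors covered the range from small to large differences. A region 28392 bp from Cxcr5, the receptor that leads cells to follicles, held 125 and 168 in aged OTC Tprog, 41.9 and 51.7 in Ttad, 27.1 and 6.38 in Ttran and 15.3 and 21.1 in Tterm, and had the largest log2 difference among the named progenitor genes, 2.93 (SE 0.27, limma adjusted p = 1.43e-14). At Ccr7, the lymph node homing receptor, the strongest region held 1077 and 988 in aged OTC Tprog against 713 and 732 in Tterm, the smallest difference of these genes at 0.78 (SE 0.06, limma adjusted p = 3.19e-18). The strongest region of Slamf6, a receptor used in the gate, held 527 and 562 in aged OTC Tprog and 603 and 485 in Ttran. It held 478 and 506 in Ttad and 318 and 367 in Tterm, so that only Tterm stood apart. Its log2 difference between Tprog and Tterm was 0.80 (SE 0.08), in the direction of the gate. Ttad was gated Slamf6- like Tterm but in OTC lay near the Slamf6+ states, so there the region did not follow the gate in every state. Over guides Ttad was called lower than Tprog and higher than Tterm (limma). With the Zfp219 guide alone Ttad was called lower than Tprog, at 313 and 276 against 448 and 496. It was not called higher than Tterm with that guide. S1pr1, the receptor for tissue exit, differed by 0.80 (SE 0.18) and Il6ra by 1.24 (SE 0.20).

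Further regions belonged to survival and signalling genes. A Bcl2 region in the gene body, at the main anti-death gene of memory cells, held 148 and 189 in aged OTC Tprog, 76.7 and 84.5 in Ttran, 73.8 and 85.0 in Ttad and 23.97 and 25.7 in Tterm (log2 difference over guides 2.04, SE 0.21, limma adjusted p = 3.27e-13). In the Dusp5 group, 1 of the 2 Tterm pools held 107 there and the other 31.9. A region 53981 bp from Xcl1, the chemokine that attracts cross-presenting dendritic cells, held 212 and 210 against 78.4 and 75.1 (1.47, SE 0.15). The Icos region, 34717 bp from the costimulatory receptor gene, held 54.3 and 78.1 against 25.1 and 11.9 (2.59, SE 0.36), the region in the body of Tnfsf8, the CD30 ligand gene, 215 and 206 against 65.4 and 64.2 (1.37, SE 0.14), and the Kit promoter region 203 and 225 against 108 and 99.0 (1.13, SE 0.16). The weakest of these genes was Cd200, with 19.2 and 28.4 against 6.54 and 19.2, pools that touch, and a difference over guides of 1.04 (SE 0.34, limma adjusted p = 0.0106), which was no longer called without the OTC Tterm replicate 1 (0.80, limma adjusted p = 0.0756).

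**Figure D2:**
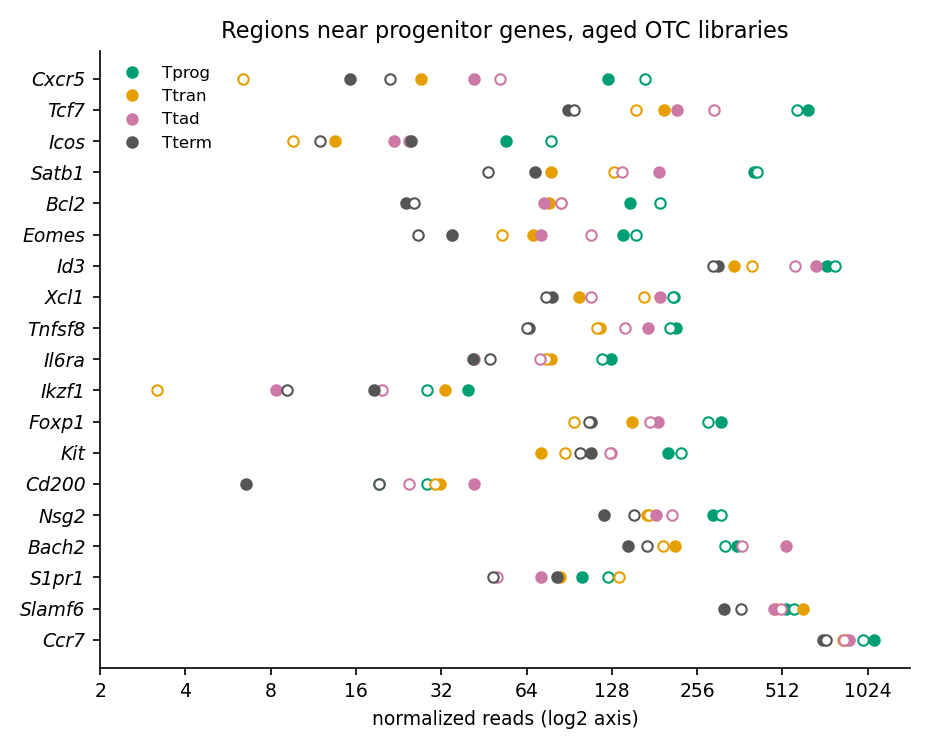
Normalized reads (x axis, log2 scale) in the 8 aged OTC libraries at the strongest region of each of the 19 progenitor-list genes that have one, ordered from the largest aged log2 difference of Tprog from Tterm at the top; colours are states, filled and open circles are replicates 1 and 2. Tprog lies to the right of Tterm in every row except where they touch at Cd200, and Bach2, Slamf6, S1pr1 and Cd200 have a Ttad or Ttran library above both Tprog libraries, while 1 Ttran library at Ikzf1 lies between them.

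Across the progenitor list as a whole, 30 genes with 388 peaks, 19 genes held 56 regions, of which 54 were called higher in aged Tprog than in aged Tterm. Genes with no region in the set included Lef1, Myb, Il7r, Klf2, Foxo1, Bcl6, Cd28, Ltb, Tox2 and Zeb1. Over all 388 peaks of the list, 198 were higher and 41 lower in aged Tprog, with a median log2 difference of 0.36, where 16.9% of all peaks were higher and 18.4% lower with a median of 0.01. The list of 30 genes of terminal and effector cells had 286 peaks, of which 1, at the Cd101 promoter, was in the set, and 36 of the 286 were higher and 145 lower (median -0.32). The TCF and Wnt list of 21 genes had 131 peaks and 6 regions in the set (4 at Tcf7, 1 at Tle4 and 1 at Znrf3), all 6 higher in aged Tprog, while over its 131 peaks 34 were higher and 25 lower (median 0.09).

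The largest aged differences lay away from the listed genes. A region with no gene within 100 kb (chr3:38282793-38284121) held 268 and 220 in aged OTC Tprog, 31.9 and 37.0 in Ttad, 19.6 and 17.5 in Ttran and 14.2 and 5.50 in Tterm, a log2 difference over guides of 5.06 (SE 0.34, limma adjusted p = 1.11e-20). It was followed by regions assigned to Lonrf2 (4.69), Qrsl1 (4.45), Ift80 (4.40) and Sh3kbp1 (4.35). At the Qrsl1 region (chr10:43783133-43783592) both OTC Tterm libraries were at 0 and the Tprog libraries held 46.4 and 56.8. The smallest differences were negative, -0.82 at chr1:101103876-101108340 with no gene within 100 kb, -0.78 near Zfp982, -0.76 at Ptprt, -0.75 at 4931408C20Rik and -0.60 near Vmn1r48; the first 3 passed the limma test as lower, those at Zfp982 and Ptprt only narrowly, as leaving out single libraries took their adjusted p as far as 0.123 and 0.118. The call at 4931408C20Rik appeared without the Dusp5 Tprog replicate 2 (-1.45, limma adjusted p = 0.00109) and that near Vmn1r48 without the Dusp5 Tprog replicate 1 (-0.87, limma adjusted p = 0.0219), and in each of the 5 both Dusp5 Tterm libraries lay above both Dusp5 Tprog libraries, as described below. The regions near Zfp982 and at 4931408C20Rik had means of 21.7 and 20.9, close to the filter of 20. High aged Dusp5 values count in these means, so the negative differences there are a description only.

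The second question was where the transitory and Ttad states lie. In aged hosts the regions were partly closed in both. Against Tprog, 1162 regions were lower in Ttran and 8 higher (all peaks 13.3% lower and 16% higher, median of the regions -1.02), and 941 were lower in Ttad and 27 higher (all peaks 7.56% lower and 9.88% higher, median -0.78). Against Tterm, 475 were higher in Ttran (all peaks 4.11% higher and 3.04% lower, median 0.48) and 1 was lower, the Kit promoter region at -0.48 (SE 0.16, limma adjusted p = 0.0415). Of the regions, 798 were higher in Ttad than in Tterm (all peaks 7.46% higher and 8.32% lower, median 0.68), and 1 was lower, a region of Lmntd1. All counts are limma calls over the 3 guides. Of the 27 higher in Ttad than in Tprog, 17 are wide and thin regions described below. With a single value per group, an alternative added after the data were seen, the counts of 27 and 8 higher than Tprog in Ttad and Ttran, and that of 8 lower in Tprog than in Tterm, were each 0.

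The order of the states was therefore Tprog, Ttad, Ttran, Tterm in the level of the whole set. In aged OTC libraries the median level over the 1426 regions was 6.56 and 6.53 on the log2(value + 1) scale in Tprog, 5.73 and 5.75 in Ttad, 5.53 and 5.51 in Ttran and 4.93 and 4.90 in Tterm. The largest gap between the 2 replicates of an aged group was 0.05, smaller than the step between any neighbouring OTC states, while medians over all peaks lay between 6.44 and 6.57 in every aged group. With the mean over guides, 1336 regions were highest in Tprog, 1182 lowest in Tterm, and 1147 had both Ttad and Ttran between the other states. Ttad was above Ttran at 1015 of the 1426; that difference was not tested. Placed on a scale from Tterm (0%) to Tprog (100%), the 1166 regions with an aged state difference of at least 1 had a median position of 47.8% in Ttad (quartiles 33.0% and 60.7%) and of 32.1% in Ttran (18.1% and 44.6%).

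**Figure D3:**
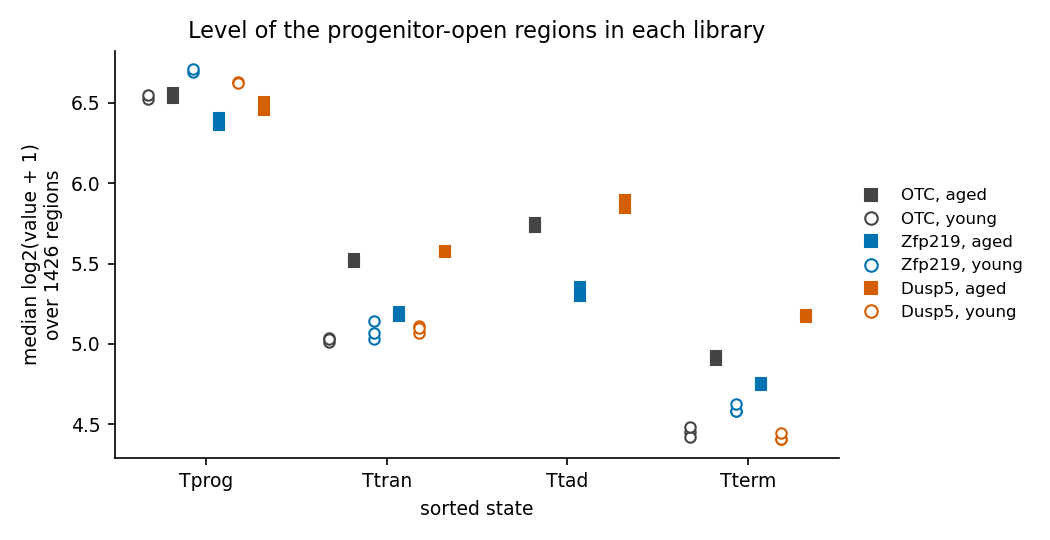
Median log2(value + 1) over the 1426 regions (y axis) in each of the 48 libraries, by sorted state (x axis), guide (colour) and host age (filled squares aged, open circles young). Within each guide and host age the Tprog libraries lie highest and the Tterm libraries lowest, aged OTC Ttad lies at 5.73 and 5.75, and the young Tprog and Tterm values were used to choose the regions.

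Single regions differed in how far Ttad had closed. At Tcf7 the log2 difference of Ttad from Tprog was -1.36 (SE 0.11, limma adjusted p = 3.75e-16) and of Ttad from Tterm 1.40 (SE 0.11). At the strongest Id3 region Ttad lay nearer to Tprog, with -0.61 (SE 0.08) against 1.12 (SE 0.08) from Tterm. The Id3 promoter region differed in OTC: Ttad held 211 and 258, nearer to Tterm (145 and 182) than to Tprog (489 and 466). At Bach2 Ttad was not separated from Tprog, with OTC values of 527 and 367 in Ttad and 354 and 320 in Tprog and a difference over guides of 0.17 (SE 0.11, limma adjusted p = 0.307), while Ttran was lower than Tprog by -0.80 (SE 0.11). The largest falls of Ttad from Tprog were near Gypc (-3.27), at Nf1 (-3.08) and at Bicra (-2.75). Near Gypc Ttad was still above Tterm (log2 difference 0.96, limma adjusted p = 0.0477), and at Nf1 and Bicra that difference did not pass; at the Nf1 region OTC Ttad held 6.71 and 6.16 against 51.0 and 47.0 in Tprog and 2.18 and 6.42 in Tterm. Nf1 encodes a RAS inhibitor and Bicra a subunit of a BAF chromatin remodelling complex. The 3 largest rises were near Zfp982 (1.21), at 4931408C20Rik (1.19) and at chr1:101103876-101108340 (1.17). Those near Zfp982 and at 4931408C20Rik had means of 21.7 and 20.9, close to the filter of 20. Both were highest in aged Dusp5 Ttad libraries (68.9 and 71.9, and 83.5 and 71.9), which count in that mean. Their rises are therefore a description only. The rise at 4931408C20Rik was the least stable, at 0.49 (limma adjusted p = 0.407) without the Dusp5 Tprog replicate 1.

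The third question was what the Zfp219 guide did to these sites in aged hosts. Over 4 states, 422 regions were lower with the Zfp219 guide than with OTC and 57 higher, against 14% of all peaks lower and 11.1% higher, and the median log2 difference of the regions was -0.24, against 0.01 over all peaks. The terminal-open peaks, in the same comparison, had 90 of 746 lower and 82 higher, with a median of 0.05. By state, 18 regions were lower in Tprog (1.26% of the regions, under the 1.53% of all peaks; 3 with all 48 libraries in the fit), 234 in Ttran (all peaks 8.46%; 34 of the 43 wide and thin regions described below are among them, and 200 were lower without these), 179 in Ttad (all peaks 4.92%) and 69 in Tterm (all peaks 2.7%). Those higher numbered 28 in Ttran (all peaks 5.08%), 14 in Ttad (all peaks 2.78%), 18 in Tterm (all peaks 0.685%) and 2 in Tprog (all peaks 0.77%), which were chr1:101103876-101108340 and chr5:119348163-119348797, both without a gene within 100 kb. The median differences were -0.14 in Tprog, -0.32 in Ttran, -0.40 in Ttad and -0.14 in Tterm.

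At progenitor genes the lowering was uneven. Of the 19 regions that are the strongest of their progenitor-list gene, 8 were lower over 4 states, 0 higher and 11 not called (limma; all peaks 14% lower and 11.1% higher). The strongest Ccr7 region held 1077 and 988 in OTC Tprog against 874 and 751 with the Zfp219 guide, 857 and 835 against 501 and 533 in Ttran, 877 and 846 against 570 and 536 in Ttad, and 713 and 732 against 427 and 419 in Tterm. The pools did not overlap in any state, and the mean log2 difference was -0.62 (SE 0.05, limma adjusted p = 1.01e-15). The strongest Slamf6 region was lower by -0.58 (SE 0.07, limma adjusted p = 1.42e-10), with 478 and 506 in OTC Ttad against 313 and 276. Id3 fell by 0.51 on the log2 scale (SE 0.07, limma adjusted p = 1.92e-08), from 672 and 565 to 405 and 291 in Ttad, and Satb1, Bcl2, Kit, Bach2 and Xcl1 had differences of -0.65, -0.72, -0.59, -0.47 and -0.37, all passing the test. The main Tcf7 region did not pass, with -0.06 (SE 0.09, limma adjusted p = 0.691) and OTC Ttad values of 218 and 293 against 226 and 214. Neither did Cxcr5 (-0.20, SE 0.24) nor Eomes (0.00, SE 0.16). The Icos region had a positive difference over states that did not pass (0.63, SE 0.31, limma adjusted p = 0.132). In Ttran alone it was higher with the Zfp219 guide, at 56.1 and 51.4 against 13.5 and 9.57 in OTC (log2 difference 2.14, SE 0.62, limma adjusted p = 0.0119).

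The 3 largest falls with the Zfp219 guide were near Ntng1 (-1.79), at Cystm1 (-1.67) and near Vmn2r85 (-1.63). The Vmn2r85 region (chr10:130433961-130434779) held 219 and 177 in OTC Tprog, 188 and 145 in Ttad, 155 and 158 in Ttran and 121 and 144 in Tterm, against 88.1 and 70.1, 51.7 and 72.5, 52.0 and 39.97, and 32.7 and 30.1 with the Zfp219 guide (SE 0.14, limma adjusted p = 5.45e-15). It was lower in every state, and the Dusp5 libraries also lay under OTC there, at 51.3 to 119. The 3 largest rises were near Cxcr3, the receptor for interferon-induced chemokines (1.44), at chr5:119348163-119348797 (1.35) and at Stx8, a SNARE protein of late endosomes (1.32); at Cxcr3 OTC Ttad held 5.03 and 6.16 and Zfp219 Ttad 42.4 and 21.3.

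Whether the Zfp219 effect in Ttad differed from that in the other states was tested directly. No region passed limma in the difference between Ttad and the mean of the other 3 states, with 168 at an unadjusted p under 0.05, and edgeR also called 0, with 195 at an unadjusted p under 0.05; over all peaks limma called 0.00371% higher and 0.00928% lower. Leaving out single libraries gave 0 to 1 lower, and 4 higher without the OTC Ttad replicate 2, where 87 of all peaks were higher. The median of that difference over the regions was -0.20. Within guides, Ttad was higher than Tterm at 478 regions in OTC (all peaks 3.22%), at 159 with the Zfp219 guide (all peaks 0.67%) and at 389 with the Dusp5 guide (all peaks 3.35%). Those lower in Ttad than in Tterm numbered 2 in OTC (all peaks 3.55%), at Bcap29 and Mppe1, 0 with the Zfp219 guide (all peaks 0.869%; 553 at an unadjusted p under 0.05 in either direction) and 4 with the Dusp5 guide (all peaks 3.4%), at Mbnl2, Dym, Lmntd1 and Ddx6. Against Tprog, Ttad was lower at 350 regions in OTC (all peaks 2.37%), at 542 with the Zfp219 guide (all peaks 3.35%) and at 253 with the Dusp5 guide (all peaks 2.34%), and higher at 2 (all peaks 3.35%; Cd83 and chr1:101103876-101108340), at 0 (all peaks 3.78%; 964 at an unadjusted p under 0.05 in either direction) and at 58 (all peaks 4.28%, of which 40 are wide and thin regions described below). The median position of Ttad between Tterm and Tprog was 53.4% in OTC, 38.6% with the Zfp219 guide and 54.8% with the Dusp5 guide. These rest on unlike sets, the regions with a state difference of at least 1 in that guide (1189, 1163 and 975). The count in Ttad alone rests on 2 pools a group: leaving out any of the 4 libraries gave 76 to 115 lower regions in place of 179, the fewest without the Zfp219 Ttad replicate 2.

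**Figure D4:**
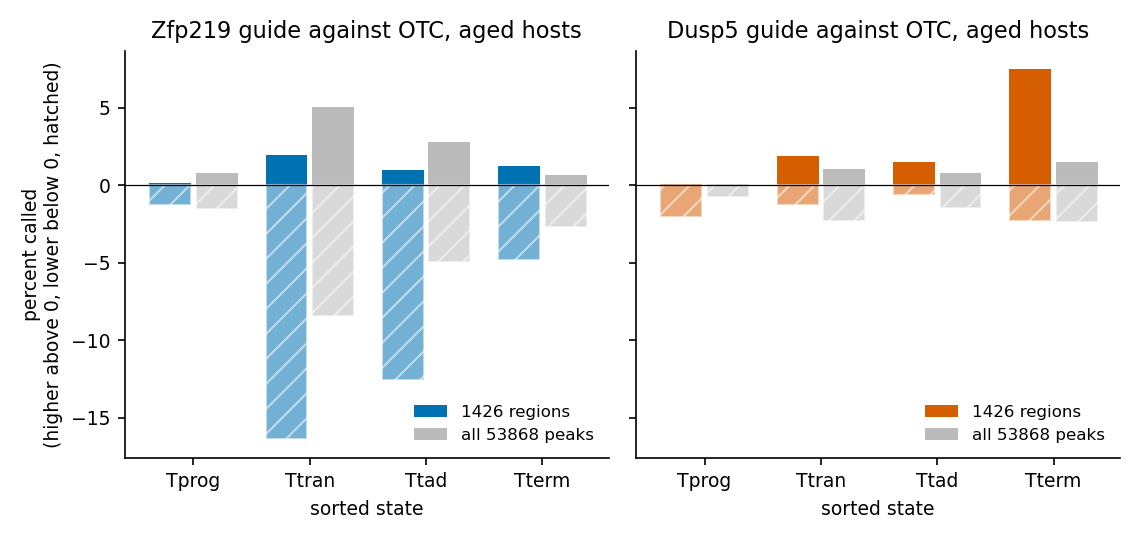
Percent called higher (above 0) and lower (below 0, hatched) against OTC in each aged state (x axis) with the Zfp219 guide (left) and the Dusp5 guide (right), for the 1426 regions (colour) and for all 53868 peaks (grey). With the Zfp219 guide 16.4% of the regions were lower in Ttran and 12.6% in Ttad, and with the Dusp5 guide 7.50% were higher in Tterm.

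The Dusp5 guide moved fewer of the regions. Over 4 aged states 95 were higher than in OTC and 63 lower, against 3.81% of all peaks higher and 7.73% lower, with a median of 0.09. The balance depended on the scaling: after quantile normalization 50 were higher and 68 lower. Without the Dusp5 Tprog replicate 2 there were 61 higher, and without the OTC Tprog replicate 2 there were 63. By state, the higher regions numbered 107 in Tterm (all peaks 1.49%), 27 in Ttran (all peaks 1.03%), 22 in Ttad (all peaks 0.796%) and 1 in Tprog (all peaks 0.117%), the one at chr5:119348163-119348797. The lower ones numbered 33 in Tterm (all peaks 2.34%), 18 in Ttran (all peaks 2.28%), 9 in Ttad (all peaks 1.48%) and 29 in Tprog (all peaks 0.743%). After quantile normalization the counts were 60 higher and 41 lower in Tterm (the median went from 0.21 to 0.03) and 15 higher and 17 lower in Ttran. In Ttad, leaving out 1 library left 4 to 22 higher: 4 against 5 lower without the Dusp5 replicate 2, 4 without the OTC replicate 1 and 10 without the Dusp5 replicate 1.

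Over 4 states, 2 of the 19 progenitor-gene regions were lower with the Dusp5 guide and 0 higher (limma). Of all peaks, 7.73% were lower and 3.81% higher. The 2 regions were those of Ccr7 at -0.26 (SE 0.05, limma adjusted p = 0.000234) and Id3 at -0.24 (SE 0.07, limma adjusted p = 0.0162). The main Tcf7 region was at 0.03 (SE 0.09, limma adjusted p = 0.871), Slamf6 at -0.07 (SE 0.07) and Bcl2 at 0.22 (SE 0.18), none of which passed. The largest rises were at Aff3 (1.87), at chr5:119348163-119348797 (1.66) and at Synrg (1.41), and the largest falls at St6galnac3 (-1.39), Arrdc4 (-1.04) and Rad51b (-1.02). The region chr5:119348163-119348797 was among the 3 largest rises with both guides, which share the OTC libraries: OTC held 6.16 to 20.7 over the 4 aged states, the Zfp219 group 13.03 to 88.1 and the Dusp5 group 21.2 to 71.9. The Aff3 region (chr1:38580349-38580941) held 1.504 and 6.38 in OTC Ttran and 33.4 and 41.3 in Dusp5 Ttran.

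A subset of the regions ran against the rule in aged Dusp5 cells. With the Dusp5 guide 925 regions were higher in aged Tprog than Tterm (all peaks 10%) and 61 were lower (all peaks 12.1%), where the OTC and Zfp219 groups each had 0 lower. Of the 61, 42 belonged to 43 regions that are at least 1500 bp wide with under 20 normalized reads per kb, a group picked out after these values were seen and therefore not tested as a group. The regions of that width outside the group started at 31.6 reads per kb. Of the 43, 12 lay on chromosome X, 7 of them in a cluster of which 6 were assigned to 4932411N23Rik, and 13 had no gene within 100 kb. The other 19 of the 61 included 5 on unplaced scaffolds and 6 near numbered Zfp genes.

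The 43 wide and thin regions had a median log2 level of 5.25 in aged OTC Tprog, 5.86 in Ttran, 5.60 in Ttad and 4.47 in Tterm. In aged Dusp5 cells the medians were 3.80 in Tprog, 5.31 in Ttran, 6.24 in Ttad and 6.49 in Tterm, and both replicates of each state lay close, at 4.06 and 3.91 in Tprog and at 6.61 and 6.37 in Tterm. At chr1:101103876-101108340, a member of this group, the Dusp5 libraries held 10.1 and 14.9 in Tprog, 35.6 and 32.5 in Ttran, 116 and 88.6 in Ttad and 141 and 152 in Tterm, against 24.9 and 21.3 in OTC Tprog and 23.97 and 16.5 in OTC Tterm. The whole table has 133 wide and thin peaks that pass the mean filter. These include the 43, and the rest were not summarised alone. Over the 133 the medians were 4.34 in Dusp5 Tprog and 6.18 in Dusp5 Tterm, in the same direction. The part of broad low signal in this result was not tested. Without the 43, the Dusp5 Tprog against Tterm counts over 1383 regions were 925 higher and 19 lower, the Dusp5 against OTC counts in Tterm 74 higher and 33 lower, and in Tprog 1 higher and 10 lower. For the Zfp219 guide over 4 states the counts without them were 57 higher and 402 lower, and for Tprog against Tterm over guides 1323 higher and 2 lower.

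**Figure D5:**
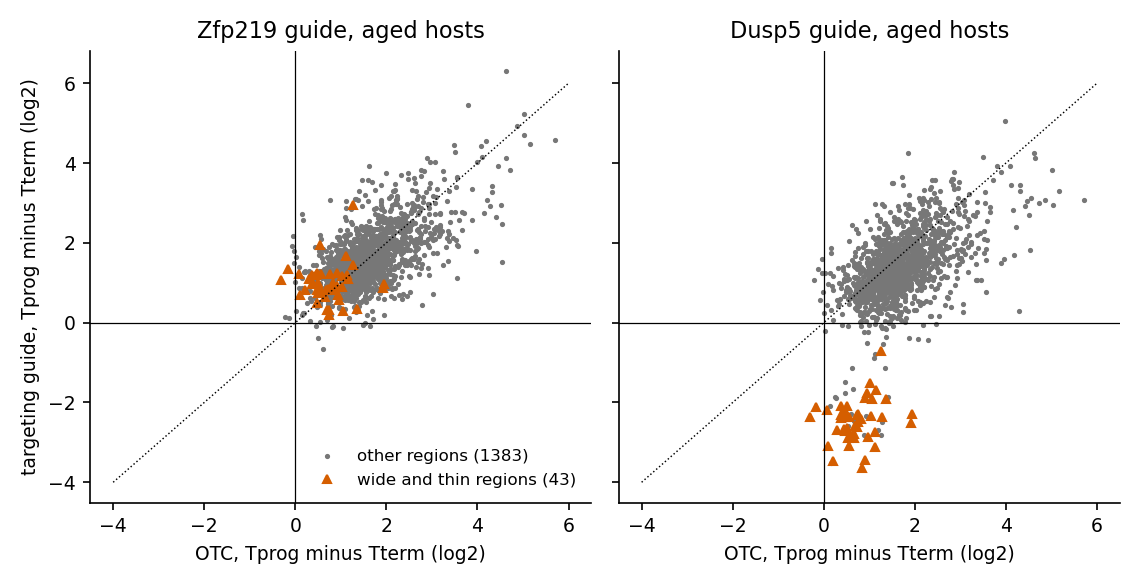
Aged Tprog minus Tterm (log2) at each region in OTC (x axis) and with the Zfp219 (left) or the Dusp5 guide (right, y axis); both panels share the OTC values, and the dotted line marks equality. The 43 wide and thin regions (orange) lie between 0.20 and 2.94 in the Zfp219 panel and between -3.63 and -0.70 in the Dusp5 panel.

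Age was compared in Ttran, whose young libraries entered the rule only through the mean level. Over guides, 579 regions were higher in aged than in young Ttran and 70 lower, against 16.6% of all peaks higher and 17.1% lower, with a median log2 difference of 0.39 against 0.02 over all peaks (limma, 48 libraries). Of the 43 wide and thin regions 37 were among the higher ones, and without the 43 there were 542 higher. The terminal-open peaks, picked by the opposite young difference, moved the other way, with 30 of 746 higher and 283 lower. Both sets were picked by a state difference in young hosts only. The part of that choice in the age difference was not tested. The median level over the 1426 regions was 5.53 and 5.51 in aged OTC Ttran and 5.04, 5.01 and 5.03 in young OTC Ttran. The step was smaller with the Zfp219 guide, at 5.20 and 5.17 aged against 5.03, 5.07 and 5.14 young, and was 5.58 and 5.57 against 5.11, 5.07 and 5.10 with the Dusp5 guide. No batch is labelled, but the S numbers in the library names start again within each age. Host age therefore cannot be told apart from any difference in how the aged and young libraries were made.

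Of the 19 progenitor-gene regions, 10 were higher in aged Ttran, 2 lower and 7 not called (limma, all peaks 16.6% higher and 17.1% lower). Id3 held 344 and 400 in aged OTC Ttran and 250, 192 and 145 in young, a log2 difference over guides of 0.74 (SE 0.09, limma adjusted p = 3.24e-10). Ccr7 rose by 1.07 (SE 0.07, limma adjusted p = 4.19e-26) and Slamf6 by 0.64 (SE 0.08, limma adjusted p = 2.77e-10). At Tcf7 the OTC pools overlapped, with 196 and 156 aged against 136, 220 and 192 young, and the difference over guides was 0.54 (SE 0.10, limma adjusted p = 1.68e-05). Icos ran the other way at -0.94 (SE 0.29, limma adjusted p = 0.00743), as did Ikzf1 at -0.87 (SE 0.30, limma adjusted p = 0.0168). The largest rises were near Qrsl1 (2.66), at chr12:90590284-90591076 with no gene within 100 kb (2.65) and near Tmem121 (2.55), and the largest falls at chr15:10035392-10036360 with no gene within 100 kb (-1.69), at Cdk19 (-1.67) and at Spsb4 (-1.55). At Spsb4, a ubiquitin ligase adaptor, aged OTC Ttran held 51.1 and 41.4 and young OTC Ttran 95.8, 123 and 111.

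In young Ttran the guides moved few of the regions. With the Zfp219 guide 77 were lower and 18 higher (all peaks 4.23% lower and 1.65% higher, median -0.11), and leaving out any of the 3 OTC libraries gave 43 to 51 lower. With the Dusp5 guide 8 were higher and 5 lower (all peaks 0.293% and 0.353%), and without any 1 of the 3 Dusp5 libraries the balance turned, to 1 higher and 4 lower, 7 and 9, or 5 and 11. The 5 lower ones included the main Tcf7 region, with 129, 107 and 81.6 in Dusp5 against 136, 220 and 192 in OTC (log2 difference -0.78, SE 0.16, limma adjusted p = 0.00376), which was also lower with the Zfp219 guide in young Ttran (-0.54, SE 0.16, limma adjusted p = 0.0283), and regions of Rad51b, Atrnl1, B4galt1 and 1700025G04Rik, named because the count is small. A fit of the compared groups alone left 5 lower with the Zfp219 guide, and 3 higher and 0 lower with the Dusp5 guide.

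For the libraries as a whole, reads in peaks ran from 5638413 to 16159054 in aged and from 6589023 to 29942755 in young libraries, and 1313 of the 1426 regions had reads in all 48. Per library, 0.346% to 1.58% of all normalized reads fell in the regions. No region was assigned to either targeted gene: of 4 Zfp219 peaks 1 was higher with its guide over 4 states, and of 17 Dusp5 peaks 2 were lower, and open chromatin at a locus does not measure its editing. All 8 CD8 T cell markers had peaks, with 4 regions in the set at Cd2, Cd247 and Lck. Of 7 melanoma markers 4 had a peak and none a region, and Tyr, Dct and Tyrp1 had no peak. The 9 melanoma peaks summed to 11.4 to 11.9 on the log2 scale over the libraries. The 69 CD8 T cell peaks summed to 14.5 to 14.9. These are sums over unlike numbers of peaks, so they do not compare the level of single peaks. The B cell list had 1 region (at Pax5) among 12 peaks with no peak at Ms4a1, Cd79a or Cd79b, the myeloid list 0 among 22 with no peak at Csf1r, Lyz2 or Adgre1, the CD4 and regulatory list 0 among 6 with no peak at Foxp3, and the NK list 1 (at Klrb1c) among 16.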

How the data were processed

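The authors deposited a table of signal values, with 53868 peaks and 48 libraries, made by dividing read counts by a factor for each library, as read from the values: 100% of values in each library were whole multiples of a step within 0.01, so whole reads were recovered. The submitters' processing notes name Bowtie2 2.2.9, Picard 2.8.0, MACS2 2.1.1, SAMtools 1.3.1, DESeq2 1.28.1 and build mm10, without their roles; handling of duplicates and of the Tn5 offset is not given in the sources used here. Coordinates are as the file gives them.

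Differences were tested with limma 3.58.1 (R 4.3.3, trended eBayes, a mean per group) on log2(value + 1), which understates changes of weak peaks, with Benjamini-Hochberg adjustment over all peaks. Aged comparisons used 24 libraries and comparisons with young Ttran all 48. edgeR 4.0.16 on whole reads was an alternative; its fits with young libraries left out 1 young Zfp219 Tprog library, whose step was close to 1. Peaks were assigned to the protein-coding gene they overlap or the nearest within 100 kb (GRCm38.p6 RefSeq table).

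The regions, gene lists and comparisons were chosen with earlier results of these data known. Named are, for each progenitor-list gene, its strongest region; the 5 largest and smallest aged differences; the 3 largest rises and falls for Ttad, each guide and age; the largest values of the rule; and the genes with the most regions. A planned motif search in the central 300 bases of the regions was not run, since no genome was used here; promoter windows were searched instead, chosen after the data were seen. Intervals from counting would cover counting error only.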

Additional observations from a re-analysis of the deposited data

Results flagged for a closer look

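Differences between groups were tested directly in 4 comparisons and passed at some regions; these tests were added after the data were seen. The aged Tprog minus Tterm difference changed with the Dusp5 guide relative to OTC at 58 regions, 56 of them with a smaller or opposite difference (limma; 0.620% of all peaks in that direction) and 2 with a larger one, at Rad51b and Ccr6 (0.325% of all peaks). Of the 56, 37 were wide and thin regions, and leaving out single libraries gave 42 to 57. With the Zfp219 guide the same difference changed at 1 region, at Cd83 (log2 1.07, SE 0.22, limma adjusted p = 0.00958; 0.234% of all peaks higher), which was lost in 4 of 8 fits that left out a library; without the OTC Tterm replicate 2 it was replaced by 0 higher and 2 lower.

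In Ttran the effect of the Zfp219 guide differed between aged and young hosts at 65 regions, 55 with a lower and 10 with a higher value in aged hosts (2.24% and 1.43% of all peaks), and leaving out single libraries gave 22 to 63 lower. With only the compared groups in the fit, 10 were lower and 2 higher. The effect of the Dusp5 guide differed at 16 regions, 10 higher and 6 lower (0.485% and 0.850% of all peaks), with 3 to 17 higher when single libraries were left out, and 3 higher and 5 lower without the aged Dusp5 Ttran replicate 2. With only the compared groups in the fit, 2 were higher and 1 lower.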

How the results depend on the processing

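Counts of called regions in the more frequent direction stayed within 1.5 times their value under another pseudocount, a filter on weak peaks, quantile normalization, other sets of libraries in the fit and edgeR for aged Tprog against Tterm, Ttran and Ttad against Tprog and Tterm, Zfp219 over 4 states and age in Ttran. Some counts in the other direction moved more: with all 48 libraries in the fit, 3 regions in place of 8 were lower in Tprog than Tterm, 15 in place of 27 higher in Ttad and 5 in place of 8 higher in Ttran than Tprog. The filter on weak peaks left 1020 of the 1426 regions. Among these, 36 in place of 57 were higher with Zfp219, a smaller count out of fewer regions. Leaving out single libraries gave 1297 to 1314 regions higher in aged Tprog than Tterm (858 to 885 in OTC alone), 1102 to 1126 lower in Ttran and 846 to 891 lower in Ttad than Tprog, 373 to 460 and 710 to 769 higher than Tterm, 369 to 402 lower with Zfp219 over states and 76 to 115 in Ttad, 61 to 114 higher with Dusp5 over states and 4 to 22 in Ttad, 0 to 1 lower for the Zfp219 difference of Ttad from other states (4 higher without the aged OTC Ttad replicate 2), 0 to 1 higher for the Zfp219 change of the Tprog difference (0 higher and 2 lower without the aged OTC Tterm replicate 2) and 42 to 57 for the Dusp5 one, 514 to 578 higher with age in Ttran, and in young Ttran 43 to 90 lower with Zfp219 and 1 to 10 higher with Dusp5. For guide effects in aged minus young Ttran the ranges were 22 to 63 lower and 3 to 17 higher, and with the compared groups alone 10 lower with Zfp219 and 2 higher with Dusp5.

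A single value per group, chosen after seeing the data, gave 260 regions higher in Ttran than Tterm in place of 475, 279 lower with Zfp219 in place of 422, and 23 higher and 24 lower with Dusp5 in place of 95 and 63. Quantile normalization gave 50 higher and 68 lower with Dusp5 over states, 15 and 17 in Ttran, and 8 higher in Ttad. A fit of the compared groups alone gave 5 lower with Zfp219 and 3 higher with Dusp5 in young Ttran, where edgeR gave 15 higher with Dusp5. The cause was not tested.

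With the replicate block, 1324 regions were higher in aged Tprog than Tterm, 418 lower with Zfp219, 95 higher with Dusp5 and 548 higher with age in Ttran. Deviations of same-numbered aged libraries from their group means correlated between -0.0148 and 0.0146 over 66 pairs of groups, and 0 were over 0.1. No pairing by replicate number was seen, but such values cannot show whether pools shared mice.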
